A study of Homo sapiens with 8 samples.

Results

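The genes described here encode the MHC class I antigen presentation machinery, and 9 were selected by their symbols in the deposited gene annotation, namely HLA-B, HLA-C, HLA-E, HLA-F, B2M, TAP1, TAP2, TAPBP and NLRC5. They were 9 of the 34164 genes listed in either expression table, and all 9 were among the 26360 genes listed in both. RNA was sequenced from Kyse510 cells, an established human line of esophageal squamous cell carcinoma (ESCC), to compare pharmacological with genetic inhibition of LSD1, which removes methyl groups from histone H3, and G9a, which adds them. In the pharmacological arm, cells received vehicle (DMSO), 7 µM of the LSD1 inhibitor SP2509, 7 µM of the G9a inhibitor UNC0642, or both inhibitors, for 2 days. No separate dose is given for the combination. In the genetic arm, Kyse510 lines carrying a doxycycline- (Dox-) inducible shRNA in a lentiviral Tet-pLKO-puro vector, either shLSD1 or shG9a, had gone through puromycin selection for 14 days before they were left without Dox or given Dox for 2 days. Each line carried 1 hairpin, and no library of Dox-treated cells with a nonsilencing shRNA was analysed here, so an effect of Dox itself and an effect of the knockdown cannot be told apart. There was 1 library per condition and 8 in all, so that none of the differences below has a replicate check.

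MHC class I molecules display short peptides from inside the cell to CD8+ T cells and to natural killer cells. A heavy chain pairs with the light chain beta-2-microglobulin in the ER, peptides are pumped in by the TAP transporter, and tapasin holds the empty molecule at the transporter until a peptide is bound. Transcription of these genes is driven by interferons and NF-kB and by an enhanceosome on which NLRC5 acts as the transactivator, and tumors often reduce it.

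Each level is given as FPKM (fragments counted on a gene, scaled by the gene's length and the library's total), as the authors deposited it. The reads behind each FPKM value were recovered from the steps of the values. They gave library totals of 15662035 to 17889466 reads, and every interval below is a 95% exact binomial interval of such reads, which covers counting error only and compares libraries, not conditions. A gene was called higher or lower when its fold change on FPKM + 1 was at least 1.3 and it reached 1 FPKM in at least 1 of the 2 libraries. All 9 genes passed that minimum in the 5 comparisons with a control, although NLRC5 passed in both Dox comparisons only through the library with Dox, so that it could be called in 1 direction only. Both tables were normalized separately, so levels are compared within a table.

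The knockdown labels were checked first. KDM1A, which encodes LSD1, was at 26.0 FPKM in the shLSD1 line without Dox and at 6.29 FPKM with Dox. EHMT2, which encodes G9a, was at 7.85 FPKM in the shG9a line without Dox and at 4.76 FPKM with Dox. On the log2 scale these were -1.89 and -0.62. Levels of EHMT2 differed without an shRNA too, at 11.1 FPKM with vehicle and 5.38 FPKM with both inhibitors, so its check is weak. Of the squamous markers, KRT5, TP63 and DSG3 were present in every library, whereas KRT14 was low (1.10 to 10.1 FPKM). KRT6A was at 0.676 FPKM with vehicle, at 6.56 to 20.03 FPKM with the inhibitors, and at 0.769 to 1.38 FPKM in the shRNA lines, and the summed level of the 5 squamous markers ranged from 126 to 904 FPKM. The leukocyte marker PTPRC stayed at or below 0.0425 FPKM in all 8 libraries, and the only leukocyte marker of 5 to reach 1 FPKM was CD14, at 2.67 FPKM in the shLSD1 line with Dox. Among 4 fibroblast markers only COL1A1 reached 1 FPKM, at 2.92 to 5.36 FPKM, and the summed level was 3.03 to 5.53 FPKM. Since the RNA came from whole cultures, fewer cells expressing a gene and less RNA per cell cannot be told apart.

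Most of these genes lie in the MHC on chromosome 6 (build GRCh38). HLA-B (ENSG00000234745, chr6:31269491-31357188, minus strand) and HLA-C (ENSG00000204525, chr6:31268749-31272130, minus strand) are neighbours whose annotated spans overlap on the same strand. HLA-E (ENSG00000204592, chr6:30489467-30494205) and HLA-F (ENSG00000204642, chr6:29722775-29738528) are on the plus strand. TAP1 (ENSG00000168394, chr6:32845209-32853978), TAP2 (ENSG00000204267, chr6:32821833-32838780) and TAPBP (ENSG00000231925, chr6:33299694-33314387) are on the minus strand. The exceptions are B2M (ENSG00000166710, chr15:44711477-44718877) and NLRC5 (ENSG00000140853, chr16:56989485-57083531), both on the plus strand. The heavy chain genes are polymorphic and close to each other in sequence, so reads could be split among them, and the values of HLA-B and HLA-C in particular are uncertain. The sources used here do not state whether reads were counted by strand. TAP1 overlaps PSMB9 and PSMB8-AS1 on the opposite strand, HLA-F overlaps HLA-F-AS1, and NLRC5 overlaps AC023825.2, so reads of these pairs may not be told apart.

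The promoters of 7 of the 9 genes were matched to RefSeq promoter sequences (GRCh38.p14, 250 bases before to 50 bases after each gene's start), and HLA-E and NLRC5 were not matched. The stretches below are shown because the same short motifs recur at different places in genes that moved differently. They run 5′ to 3′ along the strand of the gene, and capitals mark matches on either strand to the core of the interferon-stimulated response element (GAAA, any 2 bases, then GAAA), to the CCAAT box (CCAAT), to the core letters of the cAMP response element (TGACG) or to the NF-kB consensus. HLA-B is chr6:31357220-31357379 (minus strand), HLA-C chr6:31272133-31272292 (minus strand) and HLA-F chr6:29723234-29723393 (plus strand), each covering bases 200 to 41 before the start. B2M is chr15:44711357-44711496 (plus strand, bases 160 to 21), TAP1 chr6:32853765-32853844 (minus strand, bases 140 to 61), TAP2 chr6:32838760-32838809 (minus strand, bases 70 to 21) and TAPBP chr6:33314079-33314148 (minus strand, bases 70 to 1).
HLA-B: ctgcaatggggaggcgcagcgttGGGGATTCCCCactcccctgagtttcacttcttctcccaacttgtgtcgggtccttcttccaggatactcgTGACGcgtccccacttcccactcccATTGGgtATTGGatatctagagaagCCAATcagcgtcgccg
HLA-C: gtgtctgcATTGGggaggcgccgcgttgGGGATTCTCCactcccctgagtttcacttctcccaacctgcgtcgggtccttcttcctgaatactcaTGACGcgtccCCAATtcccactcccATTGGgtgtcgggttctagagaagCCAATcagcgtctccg
HLA-F: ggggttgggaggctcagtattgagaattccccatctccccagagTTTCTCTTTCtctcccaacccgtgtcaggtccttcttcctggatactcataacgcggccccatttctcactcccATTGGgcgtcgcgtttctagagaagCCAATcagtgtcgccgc
B2M: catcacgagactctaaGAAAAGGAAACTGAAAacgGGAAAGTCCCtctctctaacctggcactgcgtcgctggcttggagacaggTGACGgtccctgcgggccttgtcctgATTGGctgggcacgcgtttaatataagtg
TAP1: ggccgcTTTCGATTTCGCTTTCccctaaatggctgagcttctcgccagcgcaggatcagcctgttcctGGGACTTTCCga
TAP2: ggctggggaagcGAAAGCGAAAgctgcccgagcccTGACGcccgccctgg
TAPBP: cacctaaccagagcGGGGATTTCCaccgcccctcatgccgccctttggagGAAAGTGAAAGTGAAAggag

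The core of the interferon-stimulated response element was found in 5 of the 7 promoters, those of HLA-F, B2M, TAP1, TAP2 and TAPBP, against 3.57% of all 35116 promoters in the table. In B2M, TAP1 and TAPBP the capitals hold an overlapping pair of matches. Neither HLA-B nor HLA-C held it, and their nearest stretch had 2 mismatches. CCAAT was found in HLA-B, HLA-C, HLA-F, B2M and TAP1 (in TAP1 at 249 bases before the start, outside the stretch shown), against 34.6% of all promoters. TGACG was found in HLA-B, HLA-C, B2M and TAP2, against 24.6%, and the NF-kB consensus in HLA-B, HLA-C, B2M, TAP1 and TAPBP, against 11.3%. TGACG stands at 106 bases before the start in HLA-B and at 105 in HLA-C. CCAAT stands at 81, 74 and 56 bases in HLA-B and at 192, 95, 80 and 56 in HLA-C. For the 7 genes, only matches that ended before the start were counted, in the first promoter entry of each. The shares of all promoters count a match anywhere in the sequence of any entry. TAP1 had a second promoter entry, in which none of these motifs was found. A match is a description of these letters and not evidence of a bound factor.

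Levels of the 9 genes differed widely in the control libraries. B2M, the light chain, was the highest of them, at 108 FPKM with vehicle, 196 FPKM in the uninduced shLSD1 line and 198 FPKM in the uninduced shG9a line. HLA-E was the highest of the 4 heavy chains, at 55.0 FPKM with vehicle and at 171 and 158 FPKM in the uninduced lines. NLRC5 and HLA-F were low in vehicle-treated cells, at 1.52 and 1.62 FPKM. In the uninduced lines NLRC5 was at 0.923 and 0.864 FPKM, and TAP2 at 1.65 and 1.87 FPKM. The uninduced lines were close to each other. Of the 8 genes that reached 1 FPKM in either of them, none was called in the shG9a line against the shLSD1 line, with log2 differences of -0.12 to 0.12, beside 7.55% of 12449 genes called in either direction. The plot of levels by library shows each value.

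**Figure D1:**
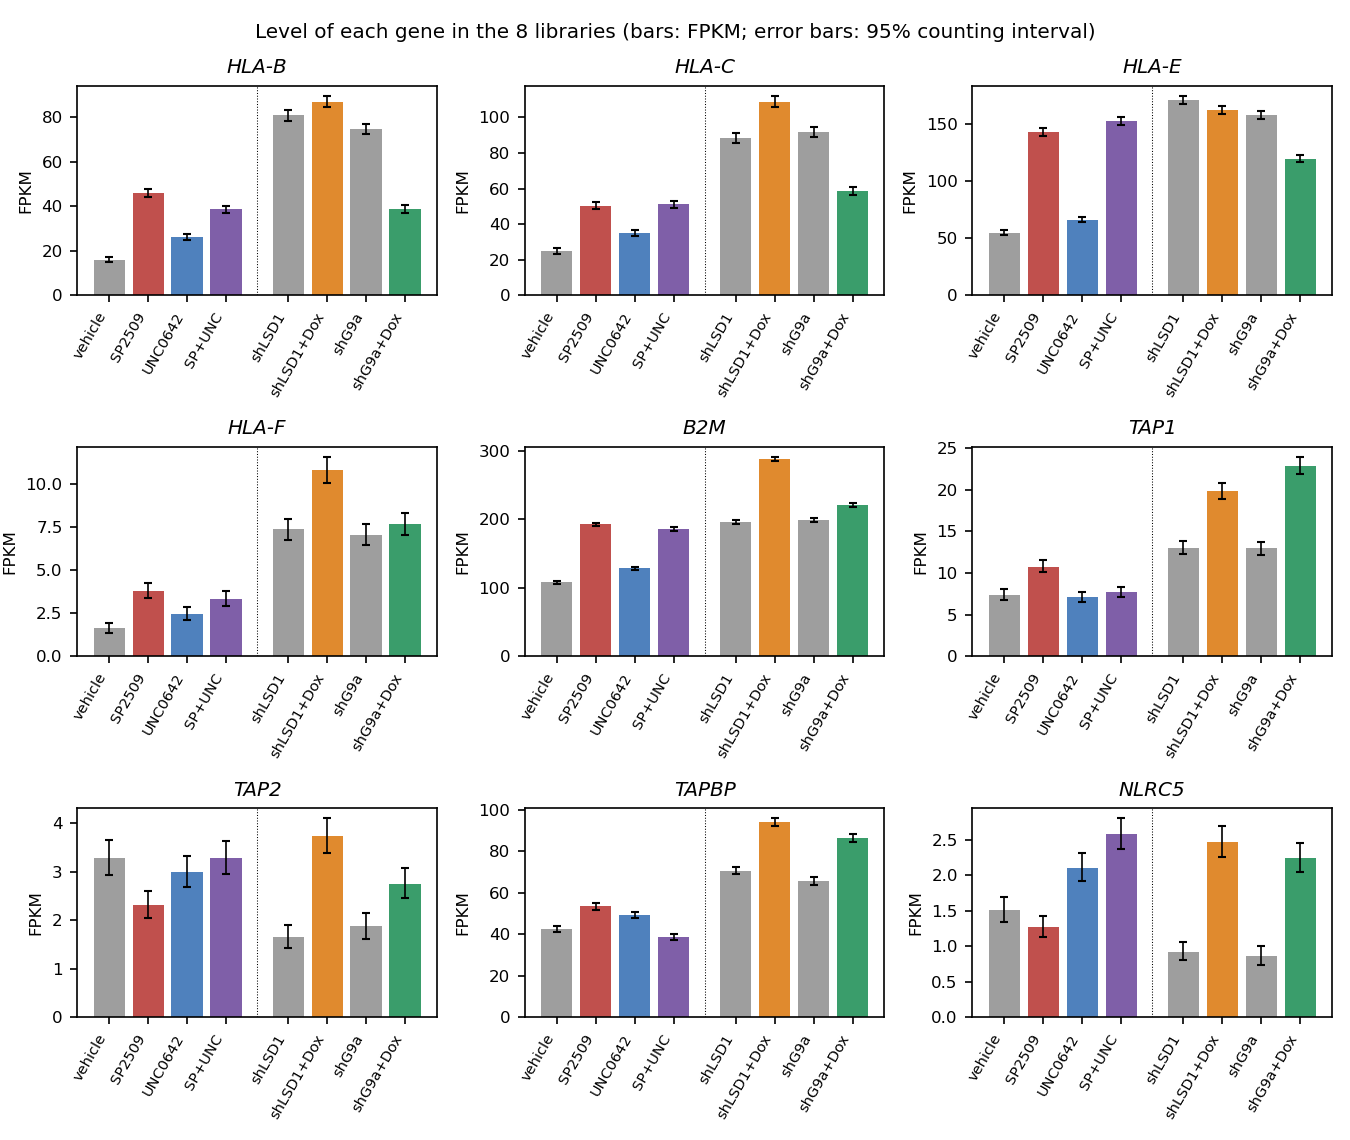
FPKM (y axis) of each of the 9 class I genes in the 8 libraries (x axis), as bars starting at 0, with 95% counting intervals as error bars; the dotted line separates the inhibitor table from the shRNA table, which were normalized separately. HLA-B reached 46.1 FPKM with SP2509 from 15.9 FPKM with vehicle, whereas in the shG9a line it was at 74.8 FPKM without Dox and 38.8 FPKM with Dox.

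Levels of all 4 heavy chains and of B2M were higher in the SP2509 library than in the vehicle library. With SP2509, 6 of the 9 genes were called higher (HLA-B, HLA-C, HLA-E, HLA-F, B2M and TAP1) and 0 lower, beside 21.0% of 13342 genes called higher and 39.9% called lower. The median log2 fold change of the 9 genes was 0.83, and that of all genes tested was -0.21. The 3 inhibitor comparisons share the vehicle library, so they are not independent of each other.

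HLA-B, a classical heavy chain that presents peptides to CD8+ T cells, was at 15.9 FPKM with vehicle, 46.1 FPKM with SP2509, 26.3 FPKM with UNC0642 and 38.6 FPKM with both. The vehicle library was lowest and all 4 libraries were apart beyond counting error. Its FPKM ratio to vehicle was 2.90 (interval 2.67 to 3.15) with SP2509, 1.65 (1.51 to 1.81) with UNC0642 and 2.43 (2.23 to 2.64) with both. With SP2509, 3.58% of all genes tested had a higher log2 fold change than HLA-B.

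HLA-C, the other classical heavy chain measured, was at 24.8 FPKM with vehicle, 50.5 FPKM with SP2509, 35.2 FPKM with UNC0642 and 51.1 FPKM with both. The SP2509 and combination libraries lay within counting error of each other, above UNC0642, which lay above vehicle. The ratio to vehicle was 2.03 (1.88 to 2.19) with SP2509, 1.42 (1.31 to 1.54) with UNC0642 and 2.06 (1.91 to 2.22) with both.

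HLA-E, a nonclassical heavy chain that binds signal peptides of other class I chains and is read by NKG2A on natural killer cells, was at 55.0 FPKM with vehicle, 143 FPKM with SP2509, 66.2 FPKM with UNC0642 and 153 FPKM with both. Its levels fell into a low pair, vehicle and UNC0642, and a high pair, SP2509 and the combination. The ratio to vehicle was 2.61 (2.49 to 2.73) with SP2509 and 2.78 (2.66 to 2.91) with both. With UNC0642 it was 1.20 (1.14 to 1.27), which did not reach the fold threshold.

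HLA-F, a nonclassical heavy chain that can reach the cell surface without peptide, was at 1.62 FPKM with vehicle, 3.80 FPKM with SP2509, 2.46 FPKM with UNC0642 and 3.32 FPKM with both. These values rested on 110 to 294 reads, and SP2509 and the combination were within counting error of each other. The ratio to vehicle was 2.35 (1.88 to 2.95) with SP2509, 1.52 (1.20 to 1.94) with UNC0642 and 2.05 (1.63 to 2.59) with both. HLA-F was thus called higher in all 3 inhibitor comparisons, like HLA-B and HLA-C.

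B2M, the light chain shared by all class I heavy chains, was at 108 FPKM with vehicle, 192 FPKM with SP2509, 129 FPKM with UNC0642 and 186 FPKM with both. With 10260 to 20842 reads it was the most precisely measured of the 9 genes. The ratio to vehicle was 1.79 (1.75 to 1.83) with SP2509, 1.19 (1.16 to 1.23) with UNC0642 and 1.73 (1.69 to 1.77) with both. The combination library was slightly below the SP2509 library, at a ratio beyond counting error.

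Of the peptide loading genes TAP1, TAP2 and TAPBP, only TAP1 was called against vehicle, and only with SP2509. TAP1, a subunit of the peptide transporter, was at 7.38 FPKM with vehicle, 10.8 FPKM with SP2509, 7.08 FPKM with UNC0642 and 7.73 FPKM with both. Only the SP2509 library stood apart, at a ratio of 1.46 (1.31 to 1.63), and the other 3 libraries were within counting error of their neighbours.

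TAP2, the other subunit of that transporter, was at 3.29 FPKM with vehicle, 2.31 FPKM with SP2509, 3.001 FPKM with UNC0642 and 3.28 FPKM with both. The SP2509 library was lowest, at a ratio of 0.703 (0.596 to 0.830), where TAP1 was highest. On the FPKM + 1 scale this was a log2 fold change of -0.37, just inside the threshold of 0.38 in size, so TAP2 was not called. The ratio of the TAP1 level to the TAP2 level was 2.24 in the vehicle library, 4.67 after SP2509, 2.36 after UNC0642 and 2.35 after both.

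TAPBP encodes tapasin, which bridges TAP and the empty heavy chain. It was at 42.4 FPKM with vehicle, 53.5 FPKM with SP2509, 49.1 FPKM with UNC0642 and 38.8 FPKM with both. It was called in none of the 3 comparisons with vehicle, with ratios of 1.26 (1.21 to 1.32), 1.16 (1.11 to 1.21) and 0.914 (0.871 to 0.960). With SP2509 this depended on the scaling. Its log2 fold change was 0.42 when centred on the median of well-expressed genes and 0.39 with TPM, and it was called higher in both.

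NLRC5, the class I transactivator, was at 1.52 FPKM with vehicle, 1.27 FPKM with SP2509, 2.11 FPKM with UNC0642 and 2.58 FPKM with both. Its order differed from that of the heavy chains, with the SP2509 library lowest and the combination highest. The ratio was 0.838 (0.709 to 0.990) with SP2509, 1.39 (1.20 to 1.61) with UNC0642 and 1.70 (1.47 to 1.97) with both, and it was called in the combination alone. On the FPKM + 1 scale the log2 fold change with UNC0642 was 0.30, below the threshold.

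With UNC0642, 3 of the 9 genes were called higher, namely HLA-B, HLA-C and HLA-F, and 0 lower, beside 18.2% of 13244 genes called higher and 16.9% lower. The median over the 9 genes was 0.26 and that of all genes tested -0.01. With both inhibitors, 6 were called higher (the 4 heavy chains, B2M and NLRC5) and 0 lower, beside 31.4% of 13907 genes called higher and 31.7% lower, with medians of 0.72 and -0.02. The plot of ratios with counting intervals sets the 5 comparisons side by side.

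**Figure D2:**
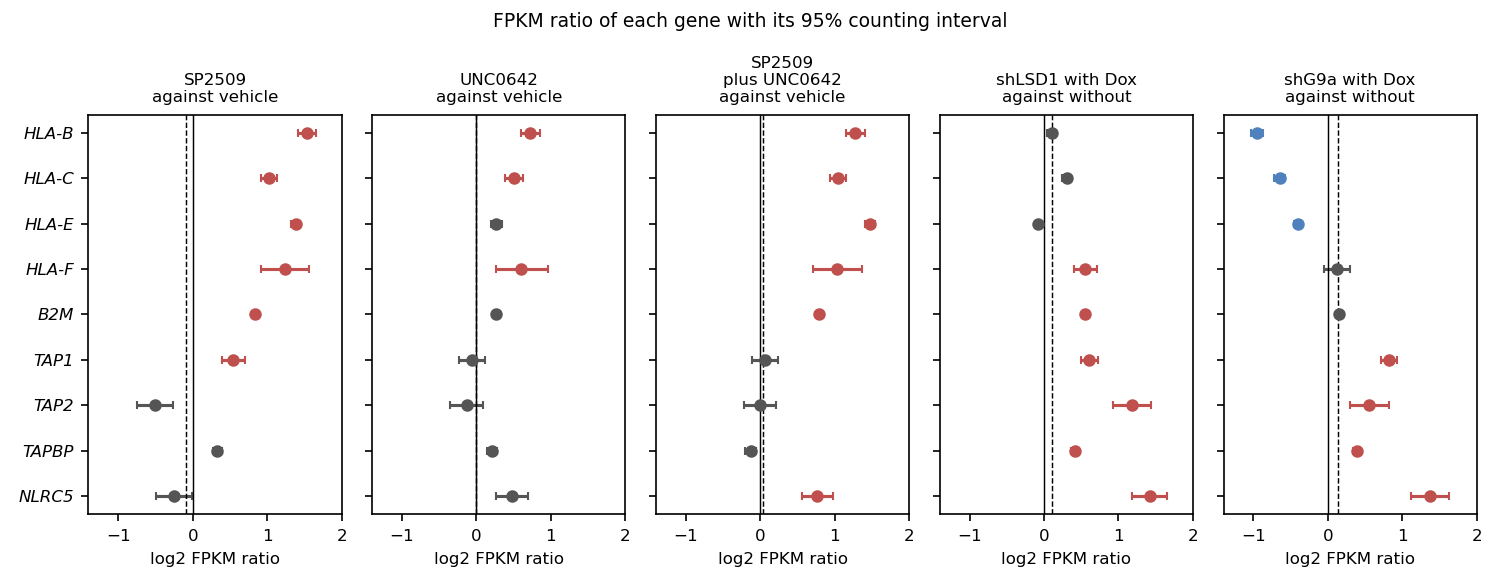
Log2 FPKM ratio (x axis, no pseudocount) of each class I gene (y axis) in the 5 comparisons, with 95% counting intervals as bars; red points were called higher, blue points lower and grey points neither, and the dashed line is the median shift of well-expressed genes (5 FPKM or more in each library). The 4 heavy chains are to the right with SP2509 (ratios of 2.03 to 2.90), and HLA-B, HLA-C and HLA-E are to the left with Dox in the shG9a line (ratios of 0.519 to 0.759).

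The genes called for the combination differed with the single inhibitor it was compared with. Against SP2509 alone, neither count of called genes was above the share of all genes. Against SP2509 alone, the combination gave 1 gene called higher, NLRC5, at a ratio of 2.03, and 2 called lower, TAP1 and TAPBP, with log2 fold changes of -0.43 and -0.45, beside 41.8% of 13658 genes called higher and 24.8% lower. Against UNC0642 alone, 4 were called higher, namely HLA-B, HLA-C, HLA-E and B2M, with log2 fold changes of 0.54, 0.52, 1.20 and 0.53, and 0 lower, beside 27.7% of 13637 genes called higher and 27.1% lower. The log2 fold change of the combination was below the sum of the single inhibitors for 7 of the 9 genes, by 0.17 for HLA-E to 0.94 for HLA-B. It was above the sum for TAP2 and NLRC5, by 0.47 and 0.35. The median departure was -0.38 for the 9 genes and 0.19 for all 14801 genes in at least 1 of the 4 libraries, of which the central 90% lay between -1.41 and 1.64. With 1 library per condition this departure has no error and was not tested.

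Dox in the shLSD1 line gave higher levels of B2M, HLA-F, both transporter subunits, tapasin and NLRC5, while HLA-B, HLA-C and HLA-E were not called. There 6 of the 9 genes were called higher and 0 lower, beside 24.8% of 12970 genes called higher and 12.3% lower, with medians of 0.50 over the 9 genes and 0.13 over all genes tested. Dox moved the median of well-expressed genes as well, by a log2 shift of 0.11 in the shLSD1 line and 0.14 in the shG9a line. Centred on that shift, the shares of all genes called became 17.0% higher and 16.6% lower for shLSD1, and 22.5% in each direction for shG9a. The log2 fold changes relative to this shift are therefore given below beside the uncentred ones.

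In the shLSD1 line, HLA-B was at 80.9 FPKM without Dox and 87.1 FPKM with Dox, a ratio of 1.08 (1.03 to 1.12), and was level relative to the shift. HLA-C was at 88.3 and 109 FPKM, a ratio of 1.23 (1.18 to 1.29) and a log2 fold change of 0.19 relative to the shift. HLA-E was at 171 and 162 FPKM, a ratio of 0.947 (0.919 to 0.975). None of these 3 heavy chains reached the fold threshold. HLA-F was the exception among the heavy chains, at 7.34 FPKM without Dox and 10.8 FPKM with Dox, a ratio of 1.47 (1.32 to 1.64) and a log2 fold change of 0.39 relative to the shift.

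B2M was at 196 FPKM without Dox and 287 FPKM with Dox in the shLSD1 line, a ratio of 1.47 (1.44 to 1.50). TAP1 was at 13.0 and 19.9 FPKM, a ratio of 1.53 (1.41 to 1.65), and TAP2 at 1.65 and 3.74 FPKM, a ratio of 2.27 (1.90 to 2.71). Both transporter subunits were thus higher with Dox, unlike with SP2509, where TAP2 was lower. TAPBP was at 70.8 and 94.1 FPKM, a ratio of 1.33 (1.29 to 1.37), and it fell below the threshold relative to the shift, at a log2 fold change of 0.30. NLRC5 was at 0.923 and 2.47 FPKM, a ratio of 2.67 (2.27 to 3.16) from 203 and 535 reads. On the FPKM + 1 scale, 5.28% of all genes tested had a higher log2 fold change than NLRC5 and 5.44% than TAP2. Of the 7 genes with a promoter shown above, the 5 called higher here were HLA-F, B2M, TAP1, TAP2 and TAPBP. These were the genes with an exact match to the core of the interferon-stimulated response element. HLA-B and HLA-C, whose nearest stretch had 2 mismatches, were not called. The other comparisons did not divide this way. With SP2509 HLA-B and HLA-C were called higher while TAP2 and TAPBP were not called, and with Dox in the shG9a line HLA-F and B2M were not called. These are uncentred calls. Relative to the shift TAPBP was not called with shLSD1, so the match there held for the uncentred calls only. The match was noticed after the values were known, and a relation between the motif and the levels was not tested.

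In the shG9a line, the calls with Dox went in both directions. Of the 9 genes, 4 were called higher (TAP1, TAP2, TAPBP and NLRC5) and 3 lower (HLA-B, HLA-C and HLA-E), beside 32.9% of 13080 genes called higher and 17.6% lower, with medians of 0.15 over the 9 genes and 0.18 over all genes tested. Relative to the shift, 2 were called higher (TAP1 and NLRC5) and the same 3 lower, beside 22.5% of all genes in each direction. HLA-B was at 74.8 FPKM without Dox and 38.8 FPKM with Dox, a ratio of 0.519 (0.491 to 0.548), and 6.73% of all genes tested had a lower log2 fold change. HLA-C was at 91.6 and 58.7 FPKM, a ratio of 0.641 (0.609 to 0.674). HLA-E was at 158 and 119.8 FPKM, a ratio of 0.759 (0.733 to 0.784). Relative to the shift these 3 log2 fold changes were -1.07, -0.78 and -0.54. HLA-F was at 7.02 and 7.66 FPKM, a ratio of 1.09 (0.967 to 1.23) that lay within counting error of 1.

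B2M was at 198 FPKM without Dox and 221 FPKM with Dox in the shG9a line, a ratio of 1.11 (1.09 to 1.13), and its log2 fold change relative to the shift was 0.01. TAP1 was at 13.0 and 22.9 FPKM, a ratio of 1.77 (1.64 to 1.91), the largest of the transporter and tapasin genes there. TAP2 was at 1.87 and 2.76 FPKM, a ratio of 1.47 (1.23 to 1.77), and TAPBP at 65.7 and 86.3 FPKM, a ratio of 1.31 (1.27 to 1.36). Both were just past the fold threshold, with log2 fold changes of 0.39, and neither stayed past it relative to the shift, at 0.24 and 0.25. NLRC5 was at 0.864 and 2.24 FPKM, a ratio of 2.60 (2.18 to 3.10), and the Dox libraries of both lines were within counting error of each other for this gene.

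The transactivator and the classical heavy chains therefore had different orders across the libraries. NLRC5 was higher with Dox in both lines, while HLA-B was nearly level in one and lower in the other, and with SP2509 HLA-B was higher and NLRC5 was at a ratio of 0.838. With UNC0642 and with both inhibitors, NLRC5 and HLA-B were both above vehicle. No gene of the 9 was called higher in all 5 comparisons. HLA-F was called higher in 4, HLA-B, HLA-C, B2M, TAP1 and NLRC5 in 3 each, and HLA-E, TAP2 and TAPBP in 2 each. Only HLA-B, HLA-C and HLA-E were called lower in any, each in the shG9a comparison. Within each table, 54 pairs of libraries were neighbours in the order of a gene's levels, and 15 of these pairs lay within counting error of each other. The plot against all genes shows where the 9 lie in each comparison.

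**Figure D3:**
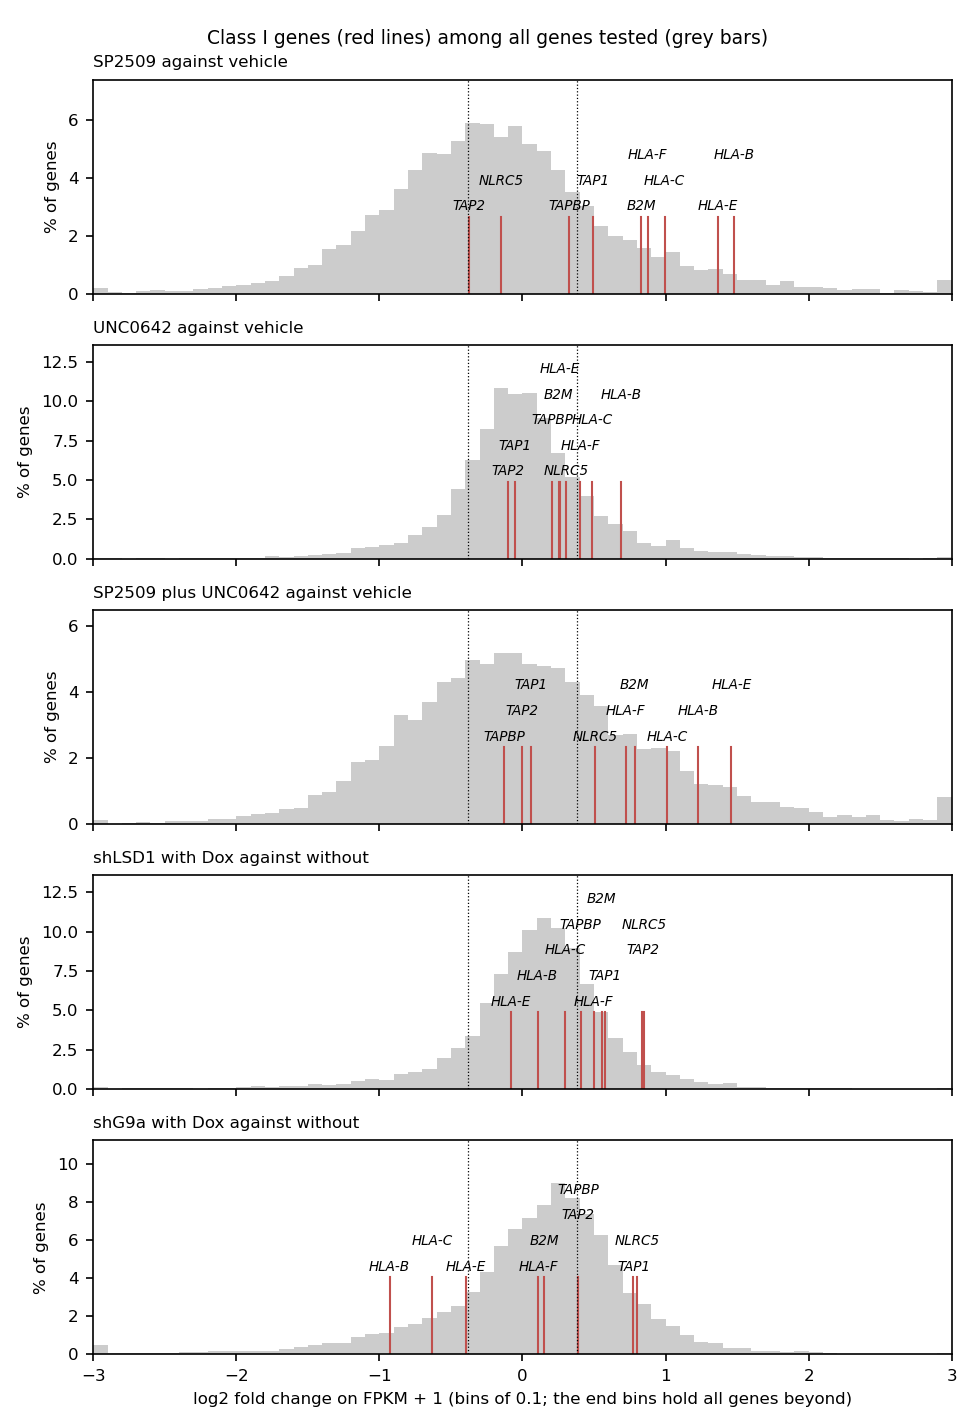
Percentage of all genes tested (y axis) by log2 fold change on FPKM + 1 (x axis, bins of 0.1) in the 5 comparisons, with the class I genes as red lines and the fold threshold of 1.3 as dotted lines. With SP2509 the median of the 9 genes was 0.83 against -0.21 for all genes tested, and with Dox in the shG9a line it was 0.15 against 0.18.

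The ratios of heavy chains to B2M, of HLA-B to TAP1 and of HLA-B to HLA-C lay above the control with the inhibitors and below it with Dox. Those of TAP1 to TAP2 and of HLA-B to HLA-E did not divide this way. The ratio of TAP1 to TAP2 was 7.90 without and 5.32 with Dox in the shLSD1 line, and 6.92 and 8.31 in the shG9a line. The summed level of the 4 heavy chains was 97.3 FPKM with vehicle, 244 FPKM with SP2509, 130.1 FPKM with UNC0642 and 246 FPKM with both. Divided by the level of B2M, it was 0.905 in vehicle-treated cells, 1.27 after SP2509, 1.01 after UNC0642 and 1.32 after the combination. In the shLSD1 line this ratio was 1.78 without Dox and 1.28 with Dox, and in the shG9a line 1.67 without Dox and 1.02 with Dox. Both Dox libraries were therefore below their controls, and all 3 inhibitor libraries above theirs. In the shLSD1 line the lower ratio came with a higher B2M level and a summed heavy chain level of 348 and 369 FPKM, whereas in the shG9a line the summed heavy chain level was 331 FPKM without Dox and 225 FPKM with Dox. The ratio of HLA-B to TAP1 was 2.16 with vehicle and 4.27, 3.71 and 4.997 with SP2509, UNC0642 and both. It was 6.21 and 4.38 without and with Dox in the shLSD1 line, and 5.77 and 1.69 in the shG9a line.

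**Figure D4:**
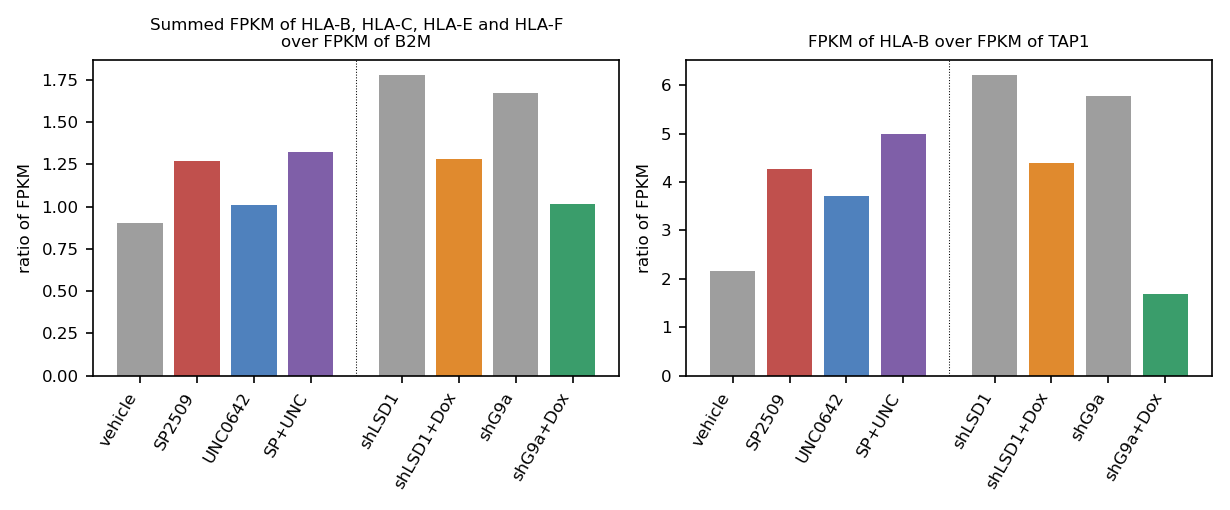
Ratio of FPKM levels (y axis, bars starting at 0) in the 8 libraries (x axis): the summed heavy chains over B2M on the left and HLA-B over TAP1 on the right, with the dotted line between the tables. Heavy chains over B2M were at 0.905 with vehicle against 1.01 to 1.32 with the inhibitors, and lower with than without Dox in both shRNA lines.

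Genes that make and trim the peptides, or fold the heavy chain, were summarised from a list of 11, and the uncentred calls are given. With SP2509, 2 of 11 were called higher and 1 lower, beside 21.0% and 39.9% of all genes. With UNC0642, 0 were called higher and 3 lower, beside 18.2% and 16.9% of all genes, among them CALR, which encodes the ER chaperone calreticulin, at a log2 fold change of -0.58. With both inhibitors, 0 were called higher and 7 lower, beside 31.4% and 31.7% of all genes, with a list median of -0.59 beside -0.02 for all genes tested. The largest of these was ERAP1, an ER aminopeptidase that trims peptides for class I, at -1.34, from 15.5 to 5.53 FPKM. The lower group with both inhibitors also held the immunoproteasome subunits PSMB8, PSMB9 and PSMB10, at -1.05, -0.69 and -1.01, which were named after their values were seen. TAP1 overlaps PSMB9, and with both inhibitors their log2 fold changes were 0.06 and -0.69.

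With Dox in the shLSD1 line, 6 of the 11 were called higher and 3 lower, beside 24.8% and 12.3% of all genes. In the shG9a line 7 were called higher and 3 lower, beside 32.9% and 17.6% of all genes, and the list medians were 0.67 and 0.57 beside 0.13 and 0.18 for all genes tested. ERAP1 was called in neither line, at 13.4 and 11.9 FPKM without and with Dox for shLSD1 and at 14.2 and 16.1 FPKM for shG9a. The 3 called lower in both lines were ER folding genes, namely CALR, CANX (calnexin) and PDIA3 (a disulfide isomerase of the peptide loading complex). Their log2 fold changes were -1.69, -0.68 and -1.23 in the shLSD1 line and -1.62, -1.47 and -1.53 in the shG9a line. The grouping of these genes by role was made after their values were seen. The immunoproteasome subunits PSMB8, PSMB9 and PSMB10 were called higher in both, at 0.80, 0.91 and 1.10 with shLSD1 and at 1.12, 0.73 and 0.83 with shG9a. In the uncentred calls, TAPBP and the TAP subunits were thus called higher while CALR, CANX and PDIA3 were called lower. Relative to the shift, TAPBP was called in neither line and TAP2 in the shLSD1 line only.

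Regulators of class I transcription were summarised from a list of 15, which holds interferon regulatory factors, STATs, NF-kB subunits and the factors that bind the SXY module. The uncentred counts with SP2509 were 2 called higher and 4 lower of 13, beside 21.0% and 39.9% of all genes. They were 0 and 4 of 13 with UNC0642, beside 18.2% and 16.9%, and 4 and 5 of 13 with both, beside 31.4% and 31.7%. With Dox they were 8 and 0 of 14 in the shLSD1 line, beside 24.8% and 12.3%, and 9 and 2 of 14 in the shG9a line, beside 32.9% and 17.6%. Both Dox counts include CIITA, the class II transactivator, which was below 1 FPKM without Dox and could be called in 1 direction only. RFX5, a subunit of the RFX complex that NLRC5 works through, was at 11.2 FPKM with vehicle, 5.13 FPKM with SP2509, 11.2 FPKM with UNC0642 and 17.2 FPKM with both. In the shRNA lines it was at 5.12 and 10.5 FPKM without and with Dox for shLSD1, and at 5.02 and 19.5 FPKM for shG9a. RFXAP, another subunit of that complex, was at 4.15 FPKM with vehicle and at 0.463 FPKM with SP2509, which on the log2 scale was -1.82. It rested on 150 and 19 reads and passed the minimum only through the vehicle library, so that it could not be called higher. The same held with both inhibitors, where RFXAP was at 0.822 FPKM. The counts called lower with SP2509 and with both inhibitors each include it. RELA, an NF-kB subunit, had a log2 fold change of 1.28 with both inhibitors, and NFKB1, which encodes its partner p50, one of -1.25. IRF1, an interferon-induced activator of class I genes that was named after its values were seen, had log2 fold changes of 0.20 with SP2509, -0.99 with UNC0642, -0.11 with both, and 0.74 with Dox in each line.

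**Figure D5:**
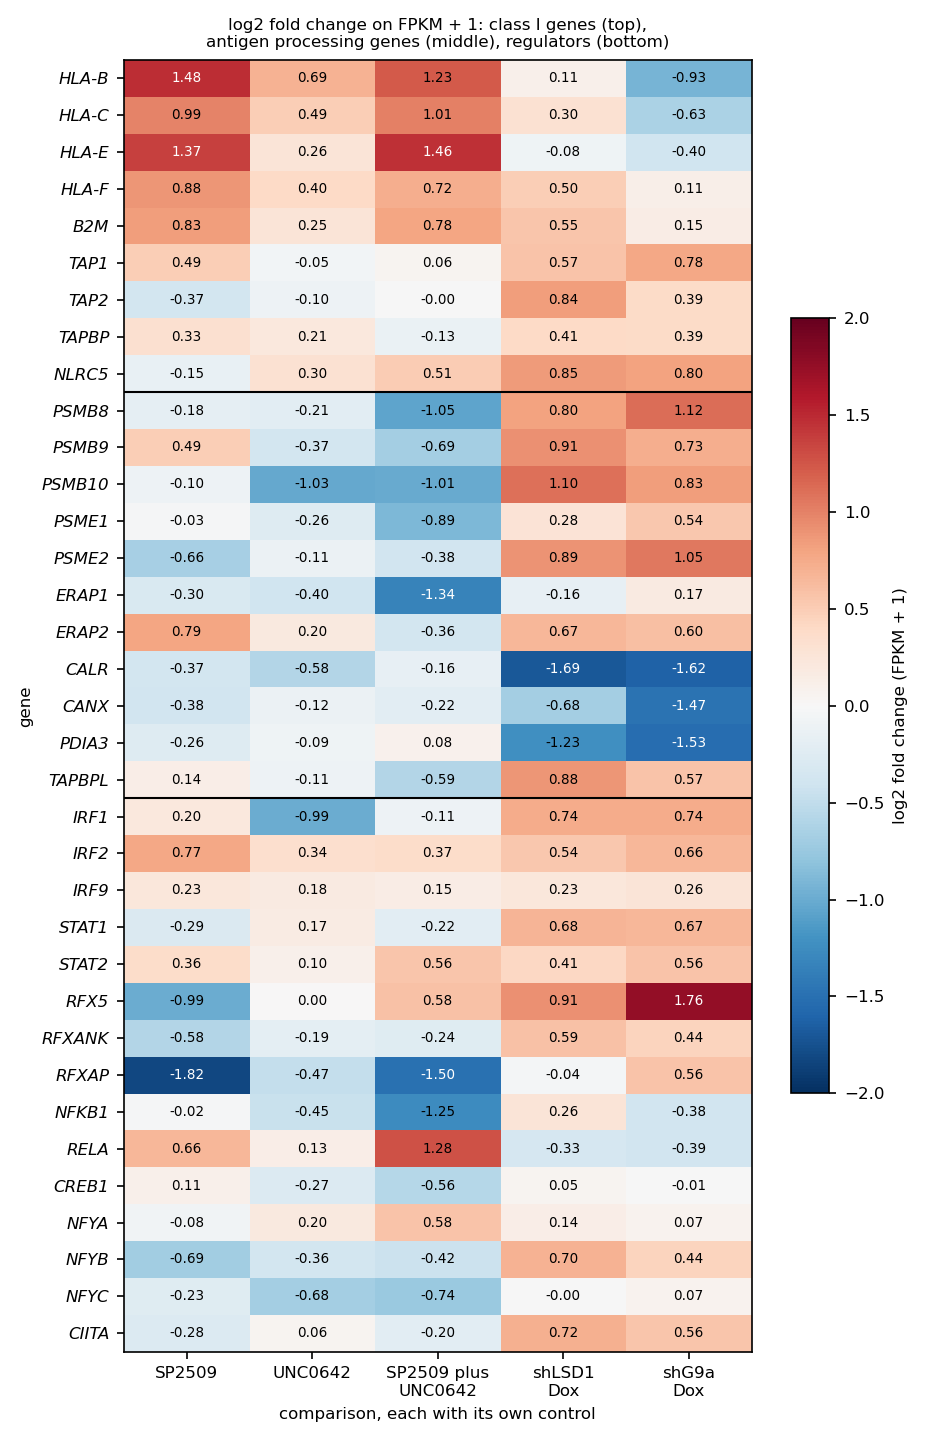
Log2 fold change on FPKM + 1 (color and printed value) of the 9 class I genes, the 11 antigen processing genes and the 15 regulators (y axis) in the 5 comparisons (x axis), including values of genes below 1 FPKM. With Dox, CALR, CANX and PDIA3 were lower in both lines (-0.68 to -1.69), and RFXAP, which passed the minimum through the vehicle library alone, was at -1.82 with SP2509.

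Interferon receptor and kinase genes gave 4 called higher and 0 lower of 7 with SP2509, beside 21.0% and 39.9% of all genes. They gave 2 and 2 of 7 with UNC0642 (18.2% and 16.9% of all genes), 1 and 2 of 7 with both (31.4% and 31.7%), 2 and 0 of 6 with Dox in the shLSD1 line (24.8% and 12.3%), and 1 and 1 of 5 with Dox in the shG9a line (32.9% and 17.6%). IFNGR1, a chain of the interferon gamma receptor, had log2 fold changes of -1.15 with UNC0642, -2.44 with both inhibitors and 1.06 with Dox in the shLSD1 line. Among class I-like genes, MICB, a ligand of the NKG2D receptor, was called higher in all 5 comparisons, with log2 fold changes of 1.02 to 2.24. Beside this, 18.2% to 32.9% of all genes were called higher. Only 4 genes of that list of 7 reached the minimum in each comparison. Of these, MICB alone was called with SP2509, with UNC0642 and in the shG9a line.

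The genes with the pattern most like the mean of the 9 were ranked over the 8 libraries, with each value centred on its own table, among 3716 genes. ZNF121, which encodes a zinc finger protein, came first (Pearson r = 0.97), ahead of the complement inhibitor CD59 (0.96), the nuclear receptor NR1H2 (0.96), UBALD2 (0.95) and the serine protease PRSS22 (0.95). The points share 4 libraries per table and their depth, so these values describe likeness and carry no test. Of the 9 genes themselves, HLA-F and B2M followed that mean most closely (r of 0.99 each), and TAP2 least (0.29), although each gene is part of the mean.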

How the data were processed

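RNA-seq of 8 Kyse510 libraries was analysed, with groups taken from the sample labels. The authors removed low-quality reads, mapped the rest to GRCh38.87, and the deposited values were FPKM, with 31582 genes in the inhibitor table and 28942 in the shRNA table. The aligner, the counting tool and strand handling are not given in the sources used here.

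Fold changes were computed on log2(FPKM + 1), which understates the change of low genes, for genes with at least 1 FPKM in at least 1 of 2 libraries, and the threshold was 1.3. No p-value was computed, since there was 1 library per condition. Reads were recovered as the smallest gene length giving whole reads (tolerance 0.01) in all 4 libraries of a table and used for 95% exact binomial intervals. The recovery was tested on simulated data. It gave exact reads for 197 of 200 genes in the inhibitor table and 195 of 200 in the shRNA table, and the intervals held the true fold for 185 and 190. In one-exon genes, 90.8% to 92.2% of values were whole reads (tolerance 0.02).

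The 9 genes and all lists were chosen with earlier results of these data known. All 9 are named, and the rule allowed at most the 4 genes of largest fold change per list, with PSMB8, PSMB9, PSMB10, IRF1 and CIITA named outside it after their values were seen, and the 5 genes most like their mean. The latter were drawn from genes with a mean of at least 5 FPKM and an SD of at least 0.3. Alternatives were a pseudocount of 0.1, a fold threshold of 2, no minimum, 5 FPKM as minimum, centring on the median, TPM, the counting interval added to the call, and the mean of both uninduced libraries as control. Medians over the 9 genes were recomputed as well, a choice made after seeing the data. Python 3.11.15, pandas 2.3.3, NumPy 2.4.6, SciPy 1.17.1 and Matplotlib 3.10.9 were used.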

Additional observations from a re-analysis of the deposited data

Results flagged for a closer look

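HLA-B and HLA-C were singled out because their log2 fold changes with Dox pointed in opposite directions in the shRNA lines, each beyond its counting interval. HLA-B was at 0.11 in the shLSD1 line and -0.93 in the shG9a line, and HLA-C at 0.30 and -0.63. The first value of HLA-B is level once the shift of all genes is taken off. The difference between the lines was not tested, since each condition had 1 library.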

How the results depend on the processing

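No called log2 fold change of the 9 genes turned its direction under the alternatives tried, although centring turned the uncalled HLA-B with shLSD1 and HLA-F with shG9a slightly below 0 (to -0.0049 and -0.031), and 64 of 74 counts of called genes stayed within 1.5 times the reported one. The other counts are given here. Of 17 medians over the 9 genes, recomputed by a choice made after seeing the data, 3 moved. With shG9a the median went from 0.15 to 0.01 after centring and to 0.03 with TPM, and with shLSD1 from 0.50 to 0.39 after centring. With SP2509, 1 gene (TAP2) became called lower with a pseudocount of 0.1 and with TPM. With a fold threshold of 2, the genes called higher were 2 with SP2509, 0 with UNC0642, 3 with both inhibitors, 0 with shLSD1 and 0 with shG9a, and the number called lower with shG9a was 0. With a minimum of 5 FPKM (TAP1 and TAPBP) and after centring (TAP1 and NLRC5), 2 were called higher with shG9a. No paired analysis was possible because there was 1 library per condition, and for the same reason no library could be left out. Depth limits HLA-F, TAP2 and NLRC5 most, which rest on 110 to 819 reads per library.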

Other observations

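MHC class II genes, which present peptides to CD4+ T cells, were summarised from a list of 9. With SP2509 3 of them reached 1 FPKM, with UNC0642 4 and with both inhibitors 2, of which 2, 3 and 1 did so only through the treated library and could not be called lower, so no count of calls is given there. With Dox in the shLSD1 line 6 of 6 were called higher, beside 24.8% of all genes, and in the shG9a line 4 of 5 were called lower, beside 17.6% of all genes. HLA-DRB1, named after its values were seen as HLA-DPA1 was, entered the latter count only through the library without Dox. CD74, the invariant chain, was at 47.02 FPKM without Dox and 84.8 FPKM with Dox in the shLSD1 line, and at 37.8 and 14.98 FPKM in the shG9a line. HLA-DRA, a class II alpha chain, was at 20.9 and 45.2 FPKM in the shLSD1 line and at 13.9 and 7.89 FPKM in the shG9a line. The uninduced lines already differed in this list, with 4 of 6 genes called lower in the shG9a line, beside 7.55% of all genes called in either direction, and HLA-DPA1 entered that count only through the shLSD1 line. These values have no replicate check.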
